A study of Sorghum propinquum with 2 samples.

Results

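Starch synthesis and branching were examined in *Sorghum propinquum*, a perennial wild grass close to cultivated sorghum. Its rhizomes are underground stems from which new shoots arise. The 9 genes described here were chosen by locus ID from a list of starch enzymes, and all 9 were found among the 24371 genes of the deposited tables. The study sequenced 1 rhizome library and 1 shoot library, both from a greenhouse-grown vegetative clone of an unnamed accession, collected during active tillering, the phase in which basal side shoots grow out. The question was how the 2 organs differ in their transcripts. Reads counted in genes came to 16862624 for rhizome and 17153968 for shoot. With 1 library per organ there is no error between samples and no p-value. Values in brackets are exact 95% intervals for counting error alone, and reads may not be independent molecules.

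Starch is built in plastids from ADP-glucose, which ADP-glucose pyrophosphorylase makes in the step that commits carbon to starch. Starch synthases join the glucose into chains, branching enzymes add the side branches of amylopectin, and debranching enzymes trim misplaced branches. Cereals carry paired isoforms of several of these enzymes, one used mainly in the seed endosperm for storage starch and one used in leaves and other vegetative tissue, where starch is often turned over daily. Stems, rhizomes and tubers can also store starch. Neither library was made from seed, so the seed-type genes were measured here outside the tissue they are best known for.

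The names of the 9 genes come from the list that chose them and not from the deposited tables, which give IDs, lengths, counts and RPKM, which is the read count per 1000 bases of gene length in every 1000000 reads. The seed-type isoforms were taken to be GBSSI, SSIIa, SSIIIa, SBEIIb and the large subunit of ADP-glucose pyrophosphorylase known in maize as Sh2, called AGPase-L here. The vegetative isoforms were GBSSII and SBEIIa, and SSIV and pullulanase were put in neither class. By the digits in the IDs, which refer to a genome whose species is not given in the sources used here, 2 of the genes lie on chromosome 10 and 2 on chromosome 6, and the other 5 lie on chromosomes 2, 3, 4, 7 and 9. Of the 9 genes, 7 reached 1 RPKM in rhizome and 7 in shoot, and they were the same genes: GBSSI and pullulanase stayed below 1 RPKM in both.

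The starch genes differed between the organs gene by gene rather than as a block. SSIIa and SBEIIa were several-fold higher in the rhizome library, SSIIIa and SBEIIb were about 2-fold higher there, SSIV was about 2-fold higher in the shoot library, and GBSSII, AGPase-L and pullulanase differed by at most 1.26-fold. The storage amylose gene GBSSI was nearly without reads in both organs. Summed over the 9 genes, the level was 90.1 RPKM in the rhizome library and 32.4 RPKM in the shoot library, a 2.78-fold difference. Most of it came from SBEIIa and SSIIa. Without SBEIIa the sums were 33.6 and 18.3 RPKM, 1.84-fold apart, and without both genes they were 18.5 and 16.4 RPKM, 1.13-fold apart. In bulk tissue, fewer cells of a type and less RNA per cell cannot be told apart.

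**Figure D1:**
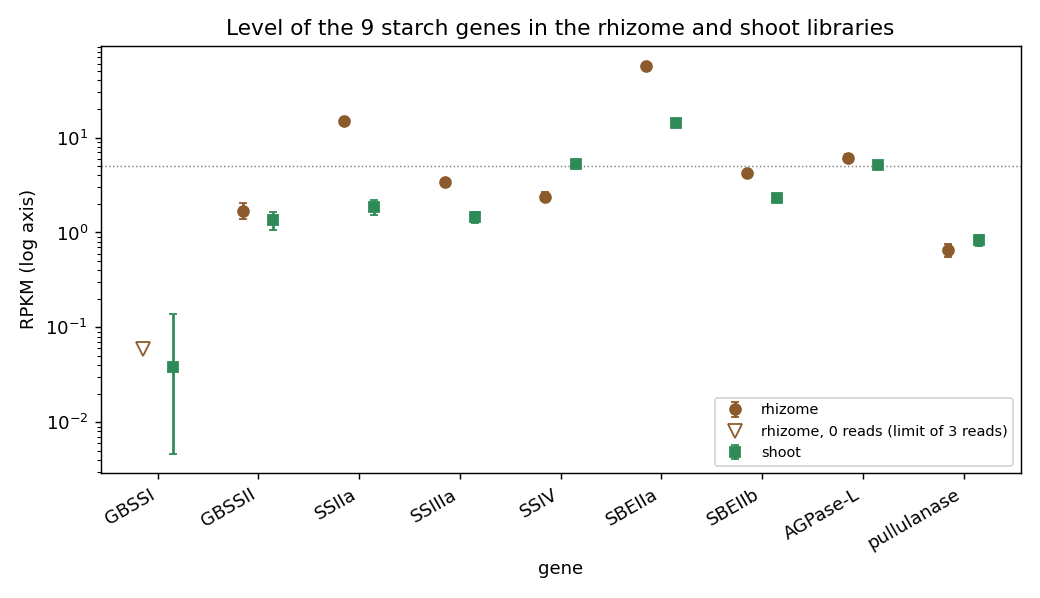
RPKM (log axis) of each starch gene in the rhizome library (brown circles) and the shoot library (green squares), with exact 95% counting intervals, and with 5 RPKM as a dotted line. SBEIIa is the highest gene in both libraries at 56.5 and 14.2 RPKM. GBSSI has 2 shoot reads and 0 rhizome reads, the latter drawn as an open triangle at the set limit of 3 reads.

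Granule-bound starch synthases make amylose, the mostly unbranched part of starch. GBSSI (Sb10g002140), the product of the Waxy locus, makes the amylose of cereal endosperm, and its loss gives waxy grain in sorghum. It had 0 reads in the rhizome library, or 0 RPKM (0 to 0.073). In the shoot library it had 2 reads, or 0.039 RPKM (0.0047 to 0.14). Both counts lie within what a count of 0 allows, so no fold is given and no difference was detectable at this depth.

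GBSSII (Sb02g025870) is the isoform of leaf and other vegetative tissue in rice and wheat. It had 108 reads and 1.69 RPKM (1.39 to 2.04) in the rhizome library and 87 reads and 1.34 RPKM (1.07 to 1.65) in the shoot library. The rhizome value was 1.26-fold the shoot value, with an interval of 0.943 to 1.69 that includes 1. Counting error alone therefore covers the difference. Of the reads of the granule-bound isoforms, GBSSI took 0 of 108 in the rhizome library and 2 of 89 in the shoot library, so nearly all reads of this pair were from GBSSII in both organs. Its own level was modest: 33.9% of all listed genes were lower in rhizome and 29.1% in shoot.

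Soluble starch synthases extend the chains of amylopectin, and the make-up of the 3 examined differed more between the organs than that of the branching enzymes. SSIIa (Sb10g008200) lengthens short chains to intermediate ones, and its loss in maize gives the sugary-type endosperm mutant of that enzyme. SSIIa had 980 reads and 15.1 RPKM (14.2 to 16.1) in the rhizome library and 122 reads and 1.85 RPKM (1.54 to 2.21) in the shoot library. That is 8.17-fold higher in the rhizome (6.76 to 9.95), with counting intervals far apart. At 1 RPKM or more in at least 1 library there were 19324 genes, of which 1.08% had a higher ratio of rhizome to shoot.

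SSIIIa (Sb07g005400) makes long chains and is the product of the dull locus in maize endosperm. Its level was 3.38 RPKM (3.11 to 3.67) from 557 reads in the rhizome library and 1.44 RPKM (1.27 to 1.64) from 242 reads in the shoot library. It was 2.34-fold higher in the rhizome (2.01 to 2.73), and 8.40% of the 19324 genes had a higher ratio. SSIIIa thus leaned the same way as SSIIa, but by less.

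SSIV (Sb09g026570), needed in Arabidopsis to start starch granules in normal number, ran the other way. The rhizome library had 296 reads and 2.39 RPKM (2.12 to 2.68), and the shoot library had 669 reads and 5.31 RPKM (4.91 to 5.72). It was 2.22-fold higher in the shoot (1.93 to 2.56). Of the 19324 genes, 15.3% had a lower ratio of rhizome to shoot, so a difference of this size in favour of the shoot was not rare.

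Among these 3 genes, the most abundant was therefore a different one in each organ. Other soluble synthases were not analysed here. In RPKM, SSIIa made up 72.4% of the 3 soluble synthases in the rhizome library, SSIIIa 16.2% and SSIV 11.4%. In the shoot library SSIV made up 61.7%, SSIIa 21.5% and SSIIIa 16.8%. In RPKM the share of SSIIIa was nearly level while SSIIa and SSIV changed places. SSIIa had 6.33 times the RPKM of SSIV in the rhizome library, and SSIV had 2.87 times the RPKM of SSIIa in the shoot library. The ratio of SSIIa to SSIV was 18.2 times as high in the rhizome library as in the shoot library (14.3 to 23.1). This comparison is made within each library, so neither the scaling by library totals nor the gene lengths enter it. The ratio of SSIIa to SSIIIa was 3.49 times as high in the rhizome (2.72 to 4.48). In counts of reads rather than RPKM, SSIIa held 53.5% (51.1% to 55.8%) of the soluble synthase reads in the rhizome library and 11.8% (9.90% to 13.9%) in the shoot library, and SSIV held 16.1% and 64.8%. SSIIIa held 30.4% (28.3% to 32.6%) and 23.4% (20.9% to 26.1%), so its share of reads was higher in the rhizome.

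**Figure D2:**
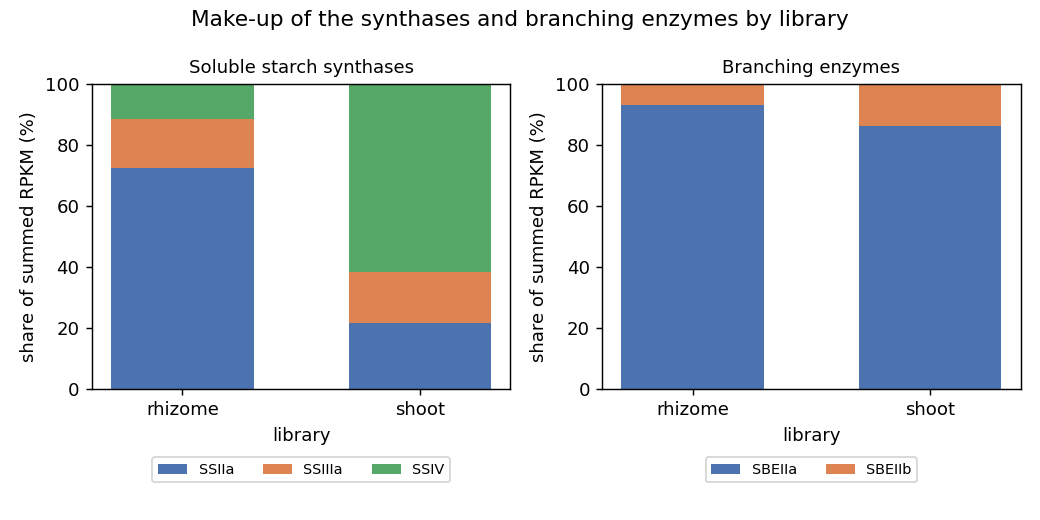
Share of summed RPKM (%, axis from 0) of each isoform among the 3 soluble starch synthases (left) and the 2 branching enzymes (right) examined in each library. SSIIa takes 72.4% of the soluble synthases in the rhizome and SSIV 61.7% in the shoot, while SBEIIa leads the branching enzymes in both, at 93.0% and 86.0%.

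Branching enzymes cut a glucan chain and rejoin it as a side branch. SBEIIa (Sb06g015360), the isoform of leaves and many other tissues in maize, was the most abundant of the 9 genes in both organs. It had 8671 reads and 56.5 RPKM (55.3 to 57.7) in the rhizome library and 2211 reads and 14.2 RPKM (13.6 to 14.8) in the shoot library. That is 3.99-fold higher in the rhizome (3.81 to 4.18). Of the 19324 genes, 2.74% had a higher ratio. In level, 94.4% of all listed genes were lower than SBEIIa in rhizome and 76.6% in shoot.

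SBEIIb (Sb04g021540) is the endosperm isoform whose loss gives the amylose extender mutant in maize. It was present in both vegetative organs, with 827 reads and 4.27 RPKM (3.99 to 4.58) in the rhizome library and 454 reads and 2.31 RPKM (2.10 to 2.53) in the shoot library. It was 1.85-fold higher in the rhizome (1.65 to 2.08), so both of these branching enzymes leaned to the rhizome. SBEIIa leaned further: its ratio to SBEIIb was 13.2 in RPKM in rhizome and 6.14 in shoot. The first was 2.15 times the second (1.90 to 2.44). SBEIIb accordingly made up 7.03% of the branching enzyme RPKM in rhizome and 14.0% in shoot. As shares of reads, SBEIIb held 8.71% (8.15% to 9.29%) and 17.0% (15.6% to 18.5%).

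The 2 branching enzymes examined also outweighed the 5 starch synthases by more in the rhizome. Their summed level was 60.8 RPKM there against 22.6 RPKM for the 5 starch synthases, a ratio of 2.69. In the shoot library the sums were 16.5 and 9.98 RPKM, a ratio of 1.65. Branching enzymes took 83.0% (82.3% to 83.7%) of the reads of these 7 genes in the rhizome library and 70.4% (68.9% to 71.8%) in the shoot library. These shares include SBEIIa, which alone held 72.2% of the reads of all 9 genes in rhizome and 50.9% in shoot. SBEIIb alone was 1.85-fold higher in the rhizome. The 5 starch synthases summed were 2.26-fold higher there in RPKM and 1.76-fold in reads scaled by library totals. Without SBEIIa the direction therefore depended on the measure. Between SSIIa and SBEIIa alone the lean in the rhizome was to the synthase. The ratio of SSIIa to SBEIIa was 0.267 in RPKM in rhizome and 0.131 in shoot, 2.05 times as high in the rhizome (1.68 to 2.51).

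Among the genes for the supply of ADP-glucose, only the large subunit AGPase-L (Sb03g028850) was examined. It is the subunit that tunes the enzyme's response to its regulators, and its loss in maize endosperm gives shrunken kernels. It had 408 reads and 6.10 RPKM (5.52 to 6.72) in the rhizome library and 351 reads and 5.16 RPKM (4.63 to 5.73) in the shoot library. The rhizome value was 1.18-fold the shoot value (1.02 to 1.37), on the log2 scale 0.24, beside a median of 0.20 for the 19324 genes at 1 RPKM or more. Under median-of-ratios and TMM scaling its log2 ratio was 0.02 and 0.07, and the interval then included 0. SSIIa had 2.48 times the RPKM of AGPase-L in the rhizome library and 0.358 times in the shoot library, a ratio 6.91 times as high in the rhizome (5.42 to 8.82). For SBEIIa the same comparison gave 3.37 (2.89 to 3.93).

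Pullulanase (Sb06g001540) removes branches, both in making ordered starch granules and in breaking starch down. In RPKM it was low in both organs, at 0.655 (0.557 to 0.764) from 161 reads in the rhizome library and 0.823 (0.715 to 0.944) from 206 reads in the shoot library. These levels rest on a deposited length of 14586 bases, the longest of these genes. In reads pullulanase stood above GBSSII, which had 108 and 87. Pullulanase was 1.26-fold higher in the shoot (1.02 to 1.56), an interval that nearly reaches 1. With SSIV it was one of 2 genes that leaned to the shoot.

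Seed-type and vegetative isoforms were not separated by organ. Of the 5 seed-type genes, 4 had enough reads for a fold, and these were higher in the rhizome by 1.18-fold (AGPase-L) to 8.17-fold (SSIIa). Of the 2 vegetative genes, SBEIIa was 3.99-fold higher in the rhizome. GBSSII was 1.26-fold higher there, with an interval that includes 1 (0.943 to 1.69). The median gene at 1 RPKM or more was itself 1.15-fold higher in the rhizome. Of the 19324 genes, 47.7% had a higher ratio than AGPase-L and 42.7% than GBSSII, so these genes lay near the middle. For SBEIIa and SSIIa the share was 2.74% and 1.08%. The summed seed-type level was 28.9 RPKM in the rhizome library and 10.8 RPKM in the shoot library, 2.67-fold apart, and 1.54-fold without SSIIa. The summed vegetative level was 58.2 and 15.5 RPKM, 3.75-fold apart, nearly all of it SBEIIa. Within the branching enzymes and the granule-bound synthases, the vegetative isoform was the more abundant one in both organs. Among the 3 soluble synthases examined, the seed-type SSIIa was the most abundant in the rhizome.

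The order of the levels differed between the libraries for SSIIa and SSIV in particular. In RPKM the rhizome order was SBEIIa, SSIIa, AGPase-L, SBEIIb, SSIIIa, SSIV, GBSSII, pullulanase and GBSSI. At the deposited lengths, the neighbours from SBEIIa to pullulanase differed beyond counting error. In the shoot library SSIV stood above AGPase-L and SSIIa below SBEIIb, and the order was SBEIIa, SSIV, AGPase-L, SBEIIb, SSIIa, SSIIIa, GBSSII, pullulanase and GBSSI. There, SSIV was 1.03 times AGPase-L (0.902 to 1.17) and SSIIIa was 1.08 times GBSSII (0.841 to 1.39), so these neighbours could not be ordered. Deposited lengths run from 3013 bases (GBSSI) to 14586 bases (pullulanase), and how they were measured is not given in the sources used here. Levels between genes depend on them, while the ratio of 1 gene between the libraries does not. By reads the order was another: in the rhizome library AGPase-L stood below SBEIIb and SSIIIa, and pullulanase above GBSSII. In the shoot library AGPase-L stood below SBEIIb, and SSIIa below SSIIIa and pullulanase.

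Against all genes, a fixed size rule was used in place of a test: at least 4-fold between the libraries and at least 5 RPKM in the higher one. SSIIa, SBEIIa, SSIV and AGPase-L reached 5 RPKM in 1 library at least, and the other 5 genes could not be called. The cut depends on the deposited lengths: SBEIIb and SSIIIa, with 827 and 557 rhizome reads, fell below it, while AGPase-L reached it with 408. By this rule 1 gene, SSIIa, was higher in the rhizome, where 1.80% of the 12826 genes at 5 RPKM or more were called. In the shoot direction 0 of the starch genes passed, where 9.02% of the 12826 were called. With the deposited totals SBEIIa, at 3.99-fold, missed the rule by less than its counting error. By median-of-ratios and TMM scaling it missed by more, with log2 ratios of 1.77 and 1.82. At 2-fold, SSIIa and SBEIIa were higher in the rhizome, where 11.0% of genes were called, and SSIV in the shoot, where 16.8% were called. The median log2 ratio of rhizome to shoot was 1.12 over the 4 starch genes at 5 RPKM or more and 0.20 over all 12826 genes. With 4 genes this median is only the midpoint of AGPase-L and SBEIIa. SSIIa and SSIV reached 5 RPKM only in the library where they were higher, so the value does not describe the starch genes as a set. Over all 9, with GBSSI ranked lowest, the median was 0.34, the value of GBSSII. With 2 libraries each gene has 1 ratio, so no gene is named as having a pattern like these.

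**Figure D3:**
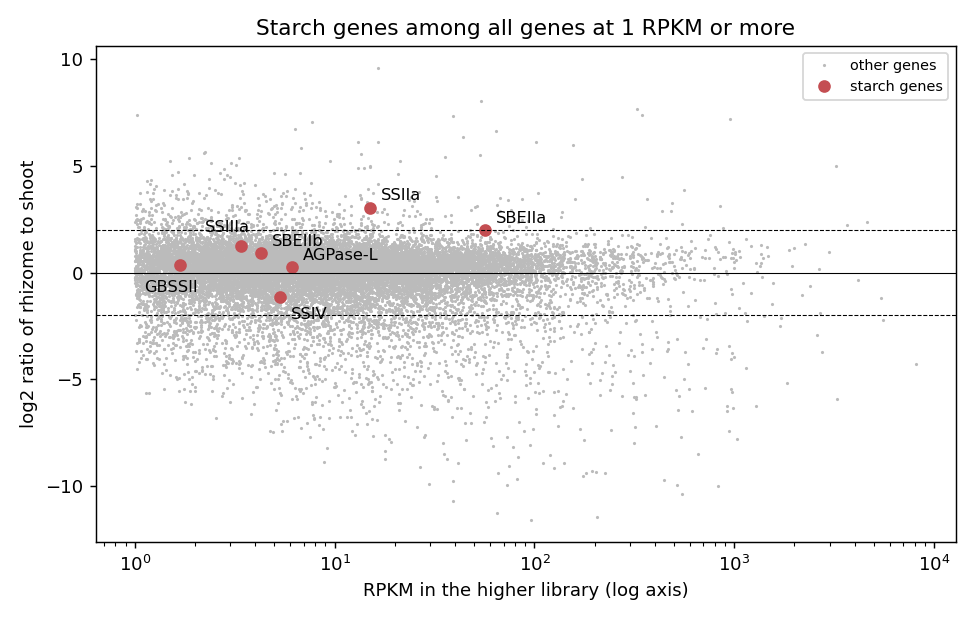
Log2 ratio of rhizome to shoot against RPKM in the higher library (log axis) for 19083 genes that reached 1 RPKM in 1 library at least and had reads in both, grey, and for the 7 starch genes among them, red. Dashed lines mark 4-fold. SSIIa lies above the upper line, SBEIIa on it, and the other 5 lie between the lines.

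Scaling changed the size of the ratios and no direction, although AGPase-L came to a log2 ratio of 0.02 under median-of-ratios scaling. Scaling by the median of ratios, so that the typical gene at 1 RPKM or more in both libraries has a ratio of 1, lowered every log2 ratio of rhizome to shoot by 0.22, TMM scaling by 0.17, and totals without the 100 most abundant genes by 0.02. SSIIa had log2 ratios of 2.81 to 3.03 over these scalings and the deposited totals, SBEIIa of 1.77 to 1.996, and SSIV of -1.37 to -1.15.

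**Figure D4:**
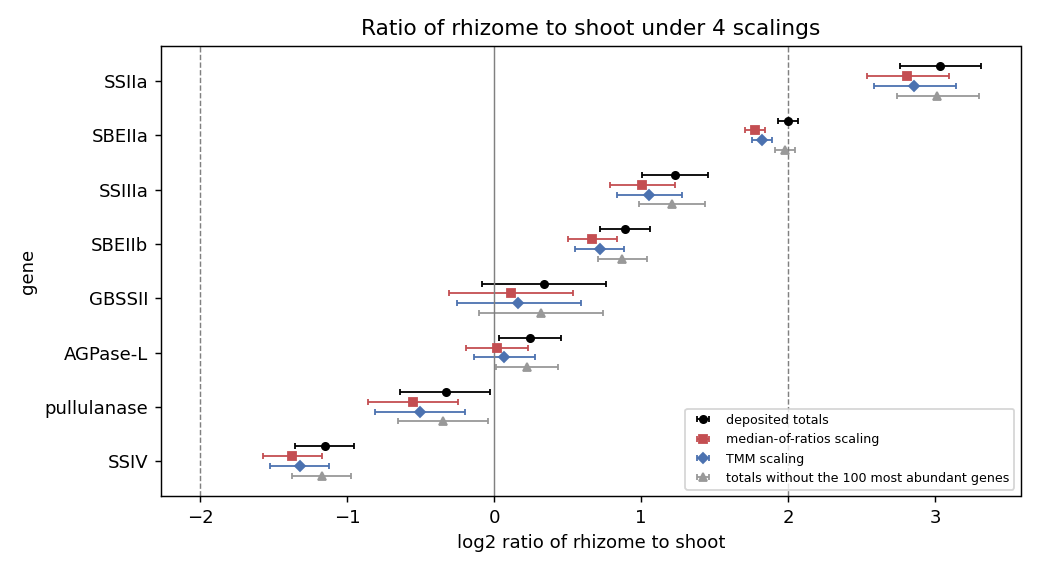
Log2 ratio of rhizome to shoot of the 8 starch genes with enough reads for a fold, under the deposited totals and 3 other scalings, with exact 95% counting intervals. The dashed lines mark 4-fold: SSIIa lies beyond it in each scaling, SBEIIa at or under it, and SSIV and pullulanase lie on the shoot side.

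Reads shared with adjoining genes were looked at through the listed genes next in ID order, since overlaps are not shown in the tables. The genes before and after SSIIa had 2 and 23 reads in the rhizome library, against 980 for SSIIa. In the shoot library they had 228 and 25 reads, against 122 for SSIIa, so the gene before it had more shoot reads than SSIIa itself and was 112-fold higher in the shoot. Those beside SBEIIa had 3 and 92 rhizome reads, against 8671, and 3 and 56 shoot reads, against 2211. SBEIIa thus exceeded its neighbours in both libraries. The gene before SSIV had 1112 rhizome and 1307 shoot reads, against 296 and 669 for SSIV, and was 1.16-fold higher in the shoot, while the gene after it had 7 and 2.

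Neighbours with many more reads than the starch gene stood beside SSIIIa, AGPase-L and GBSSII. The genes beside SSIIIa had 14854 and 10200 rhizome reads, against 557, and were 1.08-fold and 1.20-fold higher in the rhizome. The gene after AGPase-L had 7156 rhizome reads, against 408, and was 1.26-fold higher in the rhizome. AGPase-L was 1.18-fold higher there, and the median gene at 1 RPKM or more was 1.15-fold higher. The gene before AGPase-L had 274 rhizome and 1137 shoot reads and was 4.08-fold higher in the shoot. The gene before GBSSII had 1600 rhizome and 1627 shoot reads, against 108 and 87. Beside SBEIIb the gene after it had 1273 rhizome and 1681 shoot reads, against 827 and 454, and was 1.30-fold higher in the shoot, where SBEIIb was the lower. Next to pullulanase, the gene before had 13 and 90 reads and the gene after 21 and 38, fewer than pullulanase in both libraries. Whether these neighbours overlap the starch genes, and whether near-identical copies share their reads, was not tested.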

How the data were processed

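Total RNA extracted with TRIzol from 1 rhizome and 1 shoot sample was sequenced as Illumina libraries, per the labels' protocols. Not given in the sources used here are the aligner, the counter, the genome build and its species, the annotation and the use of strand. Each deposited count is a whole number of reads for a gene, and the deposited RPKM values of the authors were recomputed from the counts and the gene lengths to within 0.0001, so reads outside the listed genes do not enter the scaling. The depth was 16862624 and 17153968 reads, with medians of 167 and 177 reads per gene.

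A single library for each organ leaves a count model without residual degrees of freedom, and no test was run. Ratios of counts scaled by library totals have exact conditional binomial 95% intervals, levels exact Poisson intervals and shares Clopper-Pearson intervals. Ratios of ratios have exact conditional intervals of the odds ratio. No fold is given where both counts are 3 or fewer. Genes were called at 4-fold and 5 RPKM. All 9 genes were named by rule. The genes, their classes and these rules were chosen with earlier results of these data known, and the comparisons of SSIIa with other genes and the sums without SBEIIa and SSIIa were added after the values were seen. Product names of other genes were not used here, so the planned list of other starch genes and the marker lists for green and dividing tissue held 0 genes, and the organ labels were not checked against markers. Alternatives were other thresholds, pseudocounts, TMM factors from edgeR 4.0.16 (R 4.3.3), scaling by the median of ratios and totals without the 100 most abundant genes. Values were computed with scipy 1.17.1, pandas 2.3.3 and numpy 2.4.6 in Python 3.11.15, and drawn with matplotlib 3.10.9.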

Additional observations from a re-analysis of the deposited data

How the results depend on the processing

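No starch gene with a fold changed direction under any alternative run, but most runs could not have changed one. Thresholds leave a ratio as it is, and an equal pseudocount in both libraries cannot reverse it. The scalings lowered log2 ratios by at most 0.22, less than the smallest positive one, 0.24 for AGPase-L. Of 72 alternative values, 46 stayed within 1.5 times for counts or within the counting interval for other values, and 26 did not. At a 2-fold threshold the calls were 2 in the rhizome and 1 in the shoot, where 11.0% and 16.8% of all tested genes were called. At the other 7 call settings they were 1 and 0. Of all tested genes, those settings called 0.756% to 4.24% in the rhizome direction and 5.22% to 11.0% in the shoot direction. With a pseudocount of 1 RPKM the log2 ratio was 2.50 for SSIIa, 0.84 for SSIIIa, -0.90 for SSIV, 1.92 for SBEIIa and 0.67 for SBEIIb. Under median-of-ratios scaling it was 1.01 for SSIIIa, -1.37 for SSIV, 1.77 for SBEIIa, 0.67 for SBEIIb and 0.020 for AGPase-L, and under TMM scaling 1.82 for SBEIIa and 0.72 for SBEIIb. These shifts follow from the construction of each setting. The summed level was 1.84-fold apart without SBEIIa and 1.13-fold without SBEIIa and SSIIa. As shares of reads, SBEIIb made up 8.71% (rhizome) and 17.0% (shoot) of the branching enzymes, SSIIa 53.5% and 11.8% of the soluble synthases, and branching enzymes 83.0% and 70.4% of branching enzymes and synthases. The median log2 ratio over starch genes at 5 RPKM was 0.90 under median-of-ratios and 0.95 under TMM scaling. Over all genes at 5 RPKM it was -0.05 and 0.007. With the deposited totals it was 0.89 over 7 starch genes at 1 RPKM and 0.61 over 8 with no minimum. Over all genes it was 0.20 and 0.17 at these settings. GBSSI is not among the 8, and with it ranked lowest the median was 0.34. Alternatives for other pathway genes were not run, since that list held 0 genes. No paired analysis was possible because there is a single library for each organ, so none could be left out in turn, and variation between plants is unknown. GBSSI is limited by its 0 and 2 reads.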
